A study of Mus musculus with 76 samples.

Results

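The Iroquois (Irx) genes encode homeodomain transcription factors of the TALE class. The mouse genome holds 6 of them in 2 clusters, with Irx1, Irx2 and Irx4 on chr13 and Irx3, Irx5 and Irx6 on chr8. All 6 were taken by name from the 56923 gene IDs counted in these data. Irx factors bind DNA through their homeodomain and act in the early patterning of the neural plate, the brain, the heart and the limbs, often with several members of a cluster expressed in the same territory. In the forebrain they are known for their expression behind the zona limitans, the boundary organizer between prethalamus and thalamus, while Six3 marks territory in front of it. The signals Shh and Wnt act on the same tissue.

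The tissue was the diencephalon of C57BL/6J mouse embryos at the embryonic days E11.5 and E17.5. Wild type embryos were compared with homozygous humanized embryos, in which the human sequence of the enhancer hs754, which lies between Irx1 and Irx2 on chr13, replaces the mouse sequence. The humanized line was made by CRISPR editing and homology-directed repair and then backcrossed, so all humanized samples come from that line. Each sample is a pool from a single litter, of 6 embryos for E11.5 or 3 for E17.5, and the p-values below measure the spread between such pools. PolyA-selected RNA was sequenced in 4 samples per genotype and stage, 16 in all, with 16414369 to 24272569 counts on genes per sample (median 19300234). Chromatin immunoprecipitation (ChIP-seq) for H3K4me3, a mark of active and poised promoters, H3K27ac, a mark of active promoters and enhancers, and H3K27me3, the mark of Polycomb repression, had 2 E11.5 and 3 E17.5 samples of each genotype. By the authors' own peptide array, their H3K27ac antibody also bound acetylated histone H2B, so H3K27ac peaks may include that signal. The insulator protein CTCF was profiled in 3 samples per genotype at E17.5. Peak lists hold no read counts, so the depth behind a peak is unknown. The whole diencephalon is a mixture of regions and cell classes, and in bulk RNA fewer cells of a type and less RNA per cell cannot be told apart.

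Markers of the diencephalon were present in every RNA sample. Tcf7l2, a transcription factor of thalamus, habenula and pretectum, had 13268 to 25929 counts per sample at E11.5 and 19527 to 26008 at E17.5. Of 12 midbrain and hindbrain markers, Hoxa2, Hoxb2 and Hoxb3 were at 0 in all 8 samples of E17.5, but markers of the midbrain were present, and the list summed to 18.2 to 37.1 CPM (counts-per-million values) in these samples, led by Slc6a3.

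The 6 genes differed widely in level. Levels of different genes are compared as CPM divided by kilobases of exon. All CPM here use library sizes that start from the counts on genes and are scaled between samples, so they differ from a plain division. The scaling raised the CPM of wild type replicate 1 of E17.5 more than those of the rest of its group. In wild type embryos at E11.5 the order was Irx2 (36.8 ± 3.75, SD, n = 4), Irx3 (33.3 ± 0.605), Irx1 (18.4 ± 2.35), Irx5 (17.2 ± 0.712), Irx6 (0.469 ± 0.287) and Irx4 (0.201 ± 0.0635). Irx2 and Irx3 overlapped between samples, as did Irx1 and Irx5, while the other neighbours in this order did not overlap. Among 21631 protein-coding genes, 94.5% had a lower mean level than Irx2 and 93.7% a lower level than Irx3, against 43.3% for Irx6 and 37.9% for Irx4. Each cluster thus held a pair of genes in the upper part of the range and a single gene, the one at its far end, below the median of 1.19.

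In humanized embryos at E11.5, Irx3 (38.4 ± 0.184, SD, n = 4) and Irx2 (36.6 ± 3.87) again overlapped at the top of the order, followed by Irx1 (21.3 ± 1.4), Irx5 (17.9 ± 0.377), Irx6 (0.476 ± 0.0632) and Irx4 (0.165 ± 0.023). At E17.5 the wild type order was Irx2 (10.2 ± 1.98), Irx1 (5.09 ± 2.74), Irx3 (3.62 ± 2.06) and Irx5 (3.09 ± 1.25), each of which overlapped the next, and then Irx6 (0.921 ± 0.617) and Irx4 (0.00675 ± 0.0135). In humanized embryos at E17.5, Irx2 (8.43 ± 0.66) stood above Irx1 (3.81 ± 0.912), Irx5 (2.94 ± 0.521) and Irx3 (2.8 ± 0.113), which overlapped from one to the next. Irx6 (0.776 ± 0.28) followed, and Irx4 was at 0 in all 4 samples. By E17.5, 78.1% of protein-coding genes lay below Irx2 in wild type embryos, 65.8% below Irx1, 60.3% below Irx3 and 57.9% below Irx5.

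The comparison of stages asks how the clusters behave as the diencephalon passes from patterning to differentiated nuclei. Counts were tested with edgeR's quasi-likelihood test over all genes that passed a filter on low counts, with Benjamini-Hochberg adjustment, and a gene was called at an adjusted p under 0.05. In wild type embryos 5 of the 6 Irx genes, all but Irx6, were called lower at E17.5 and 0 were called higher. Most genes differed between the stages: 10356 of 18583 genes tested (55.7%) were called, 26.7% lower and 29.0% higher. In humanized embryos, which share no sample with the wild type comparison, the same 5 genes were called lower and Irx6 higher, where 14601 of 18781 genes (77.7%) were called, 39.5% lower and 38.2% higher. The median log2 fold change of the 6 genes was -2.17 in wild type and -2.55 in humanized embryos, against -0.01 and -0.04 over all genes tested. All 6 genes passed the filter in both comparisons. DESeq2 called the same number of Irx genes, 5 in wild type and 6 in humanized embryos, and 12271 and 16632 genes in all.

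Irx3 fell the furthest of the well-expressed members. This gene acts in the ventricular conduction system of the heart and in energy balance, and the introns of its neighbour Fto hold enhancers that act on it. Its CPM in wild type replicates 1 to 4 were 93.3, 92.1, 89.5 and 92.6 at E11.5, against 18.3, 5.38, 8.36 and 7.97 at E17.5. In humanized replicates they were 106, 106, 105 and 107 at E11.5, against 7.74, 7.4, 7.65 and 8.15 at E17.5. The stages were far apart in every sample, and within each group the samples were close except for wild type replicate 1 at E17.5, which had a higher CPM than the other wild type samples of its stage. The log2 fold change from E11.5 to E17.5 was -3.21 (SE 0.34, edgeR, Benjamini-Hochberg adjusted p = 2.35e-05) in wild type embryos, a 9.25-fold fall, and -3.79 (SE 0.11, edgeR adjusted p = 3.52e-10) in humanized embryos, a 13.8-fold fall.

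Irx5, the partner of Irx3 in the heart, where it acts on the gradient of repolarization, lies next to Irx3 on chr8. Wild type replicates had 54.4, 50.4, 55.2 and 54.7 CPM at E11.5, against 15.5, 7.83, 7.71 and 7.63 at E17.5. Humanized replicates had 56.5, 54.3, 55.9 and 57.1 CPM at E11.5, against 10.7, 9.77, 9.5 and 6.88 at E17.5. Again the stages did not overlap and wild type replicate 1 was the highest sample of E17.5. Irx5 fell 5.59-fold in wild type embryos (log2 fold change -2.48, SE 0.26, edgeR, Benjamini-Hochberg adjusted p = 1.99e-05) and 6.12-fold in humanized embryos (-2.61, SE 0.14, adjusted p = 1.22e-08).

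Irx1 and Irx2, which flank hs754, are both known from the branching lung, and Irx2 also from the formation of the cerebellum. For Irx1, wild type replicates had 49.6, 47.2, 38.2 and 39.6 CPM at E11.5, against 21.7, 7.12, 10.3 and 9.4 at E17.5. Humanized replicates had 50.6, 55.4, 47.6 and 49.5 CPM at E11.5, against 10, 8, 12 and 7 in whole CPM at E17.5. Every E17.5 sample was thus below every E11.5 sample, with wild type replicate 1 again the highest of its stage. For Irx2, wild type replicates had 104, 84.5, 107 and 96.5 CPM at E11.5, against 34.6, 24.1, 26.5 and 22.9 at E17.5. Humanized replicates had 94.2, 108, 84.3 and 102 CPM at E11.5, against 22.7, 20, 22.8 and 24.1 at E17.5. The stages of Irx2 did not overlap either, and at E17.5 Irx2 had the highest level of the family per kilobase of exon in both genotypes. By edgeR with Benjamini-Hochberg adjustment, Irx1 fell 3.63-fold in wild type embryos (log2 fold change -1.86, SE 0.32, adjusted p = 0.000616) and 5.64-fold in humanized embryos (-2.50, SE 0.16, adjusted p = 4.48e-08). The falls of Irx2 were 3.65-fold (-1.87, SE 0.19, edgeR adjusted p = 1.72e-05) and 4.38-fold (-2.13, SE 0.12, adjusted p = 1.36e-08).

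Irx4, at the far end of the chr13 cluster, specifies ventricular identity in the heart, and was close to the limit of detection in this tissue. Wild type replicates held 25, 18, 11 and 24 reads at E11.5, against 0, 0, 0 and 3 at E17.5. Humanized replicates held 18, 18, 12 and 19 reads at E11.5 and 0 in each of the 4 at E17.5. All 8 samples of E11.5 therefore had more reads than any sample of E17.5. In wild type embryos the summed 78 reads of E11.5 against 3 of E17.5 give a ratio of 25.5 after scaling to library size (95% counting interval 8.42 to 127). In humanized embryos, with 67 reads against 0, Irx4 was at least 17.7-fold lower, taking a floor of 3 counts over the group. These intervals and floors cover counting error only. The fitted log2 fold changes, -4.49 (SE 0.73, edgeR, Benjamini-Hochberg adjusted p = 0.000439) and -6.92 (SE 0.77, adjusted p = 2.64e-05), depend on the prior count added in the fit and are no bound. All 3 reads of wild type E17.5 came from replicate 4, and without it the wild type value was -7.25. The median of the 6 genes in humanized embryos is the same with Irx4 at its bound.

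Irx6, which acts in bipolar cells of the retina, was the member that did not fall. Wild type replicates had 3.02, 1.01, 1.11 and 1.18 CPM at E11.5, against 6.22, 2.17, 1.99 and 2.02 at E17.5. Humanized replicates had 1.51, 1.75, 1.81 and 1.35 CPM at E11.5, against 3.25, 1.46, 2.25 and 3.5 at E17.5. The stages overlapped in both genotypes, in wild type embryos through replicate 1 of E11.5 and in humanized embryos through replicate 2 of E17.5. The log2 fold change was 0.96 (SE 0.49, edgeR, Benjamini-Hochberg adjusted p = 0.117) in wild type embryos and 0.69 (SE 0.28, adjusted p = 0.0385) in humanized embryos, with 6 of 15 alternative settings keeping the humanized call.

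The call of Irx6 changed with the libraries kept and with the settings of the test. In wild type embryos Irx6 was called without replicate 1 of E11.5 (log2 fold change 1.45, edgeR adjusted p = 0.0318) and with gene-wise GC offsets (1.05, adjusted p = 0.0286), and the adjusted p of its alternatives ran from 0.0283 to 0.389. Without replicate 1 of E17.5 its value was 0.37. In humanized embryos the Irx6 call was lost without replicate 1 (0.64, edgeR adjusted p = 0.0843), replicate 2 (0.70, adjusted p = 0.0686), replicate 3 (0.73, adjusted p = 0.0585) or replicate 4 (0.61, adjusted p = 0.0961) of E11.5. It was also lost without replicate 1 (0.56, edgeR adjusted p = 0.112) or replicate 4 (0.54, adjusted p = 0.119) of E17.5, with no filter on low counts (0.63, adjusted p = 0.0666) and in a fit of all 16 samples (0.70, adjusted p = 0.143). Over all 15 alternatives its adjusted p ranged from 0.000341 to 0.143. With GC offsets, which kept the call, the humanized Irx6 value was 1.33 (adjusted p = 0.000341). The falls of the other 5 genes kept their call and direction under each of their 15 alternatives in both genotypes. With GC offsets the humanized fall was smaller for Irx2 (-1.45) and Irx5 (-1.97), and by DESeq2 the fitted value of Irx4 was -6.14.

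**Figure D1:**
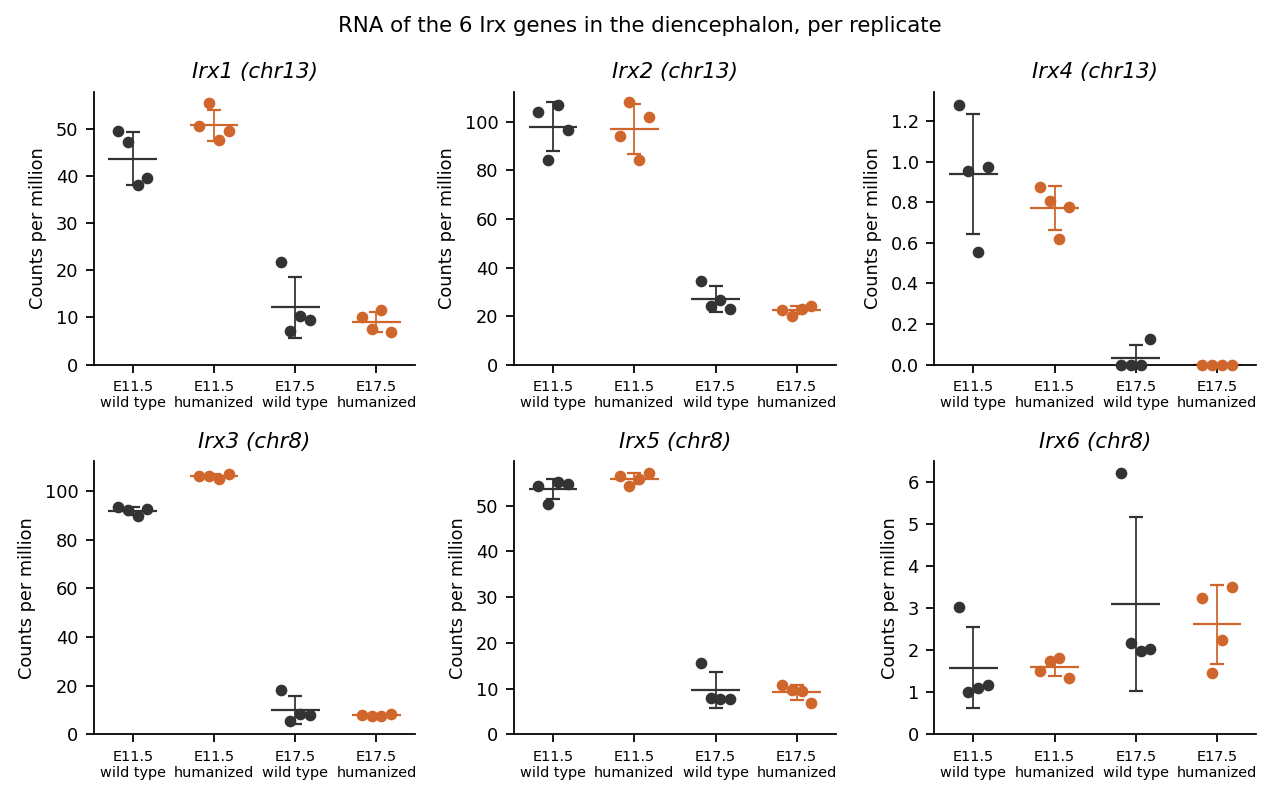
CPM of each Irx gene in all 16 RNA samples, one panel per gene, with wild type and humanized embryos at E11.5 and E17.5 on the horizontal axis and CPM on the vertical axis; points are samples and bars are the mean and SD (n = 4). Irx1, Irx2, Irx3, Irx4 and Irx5 lie lower at E17.5 in every sample, and wild type replicate 1 of E17.5 stands above its group in all panels but that of Irx4.

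Wild type replicate 1 of E17.5 stood apart across the family. Its CPM was 2.53 times the mean of the other 3 wild type E17.5 samples for Irx3, 2.43 times for Irx1, 2.01 times for Irx5, 1.41 times for Irx2 and 3.02 times for Irx6, and it was 0 for Irx4. Over all genes tested the median of this ratio was 0.963, and 3.55% of genes had a higher ratio than Irx3. It also had the lowest share of reads on no gene of all 16 libraries, 48.1%, against 52.1% to 55.2% in the rest of its group. Marker sums of this library differed from its group as well. Its 7 thalamic markers summed to 508 CPM, against 962, 837 and 925 in replicates 2 to 4, with Lhx9 the most abundant. Its 7 blood markers summed to 1020 CPM, against 300, 457 and 242, with Hbb-bs the most abundant. The 7 endothelial markers, led by Kdr, summed to 435 CPM in replicate 1 and 269, 235 and 235 in the others. Of the markers of these 3 lists, only Hbb-y (0 to 3 reads) and Hba-x (0 to 11) had a wild type E17.5 sample at 0. The part of these markers in the Irx values of replicate 1 was not tested. Without this library the wild type log2 fold change was -2.31 for Irx1, -2.02 for Irx2, -3.68 for Irx3, -2.82 for Irx5 and -4.16 for Irx4, so the falls were larger for all of these but Irx4.

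Markers of several other brain territories summed higher in the same library. The 10 markers of rostral thalamus and prethalamus, led by Dlx1, summed to 370 CPM in replicate 1 against 244, 256 and 233 in replicates 2 to 4. The 9 hypothalamic markers, led by Otp, summed to 209 CPM against 144, 160 and 139. The 8 telencephalic markers, led by Tbr1, gave 131 CPM against 77.5, 83.9 and 75.2. The 9 markers of meninges and mesenchyme, led by Col3a1, summed to 737 CPM against 505, 483 and 443, and the 7 habenula markers, led by Nhlh2, summed to 135 CPM against 189, 181 and 187. The 3 pretectal markers Pax3, Pax7 and Bhlhe23 summed to 9.83 CPM against 6.42, 5.57 and 3.71. The part of these lists in the Irx values was not tested.

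The genotype comparison asks whether replacing hs754 goes with a different level of the genes around it, with the chr8 cluster as a set of relatives that do not share the locus. By edgeR, 0 of the 6 Irx genes were called at E11.5, where 0 of 17816 genes were called (0.0%), 1058 had an unadjusted p under 0.05 and DESeq2 called 2 genes, none of them an Irx gene. At E17.5, 0 of the 5 Irx genes tested were called by edgeR, where 0 of 18763 genes were called (0.0%), 207 had an unadjusted p under 0.05 and DESeq2 called 1 gene, again no Irx gene. Irx4, with 3 and 0 reads in the groups, did not pass the filter at E17.5 and no fold is given for it. The difference between genotypes in the stage change was tested as an interaction over all 16 samples, and edgeR called 0 of the 6 Irx genes and 0 of 20234 genes (0.0%), with 1610 genes at an unadjusted p under 0.05 and 0 calls by DESeq2.

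At E11.5, where edgeR called 0.0% of genes, the CPM of the genotypes overlapped for each member but Irx3. Irx3 was higher in all 4 humanized samples (105 to 107 CPM) than in all 4 wild type samples (89.5 to 93.3 CPM), a log2 fold change of 0.18 (SE 0.07, edgeR, Benjamini-Hochberg adjusted p = 0.577). With offsets for each gene's GC content this value was -0.00012, and its adjusted p ranged from 0.225 to 1.0 over the alternatives. Irx1, which flanks hs754, had a value as large, 0.19 (SE 0.11, edgeR adjusted p = 0.577; 0.017 with GC offsets), and Irx2 had -0.04 (SE 0.11, adjusted p = 0.887), with genotypes that overlapped. Irx4 and Irx6 had log2 fold changes of -0.31 (SE 0.29) and 0.00 (SE 0.34), and Irx5 of 0.04 (SE 0.08), with genotypes that overlapped. For Irx6 this value was 0.51 without wild type replicate 1 and -0.16 without wild type replicate 2.

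At E17.5 the sign of the genotype difference turned with wild type replicate 1 for most members. The log2 fold change of humanized against wild type was -0.38 for Irx3 (SE 0.33, edgeR, Benjamini-Hochberg adjusted p = 0.808), -0.08 for Irx5 (SE 0.28, adjusted p = 0.909) and -0.25 for Irx6 (SE 0.44, adjusted p = 0.831). Without wild type replicate 1 the values were 0.086 for Irx3, 0.25 for Irx5 and 0.34 for Irx6, and the value of Irx1 moved from -0.43 to 0.016. Irx2, the other neighbour of hs754, moved from -0.28 to -0.14. Without humanized replicate 4 the value of Irx5 was 0.033. Leaving out a library was not the only choice that turned a sign. With every library kept, other settings gave values up to -0.03 for Irx1, 0.01 for Irx2 and 0.05 for Irx3. They reached 0.28 for Irx5 and 0.16 for Irx6 with GC offsets. The humanized and wild type samples of E17.5 overlapped in CPM for all 6 genes. The interaction had log2 values of -0.63 for Irx1 (SE 0.37, edgeR adjusted p = 0.462), -0.58 for Irx3 (SE 0.35, adjusted p = 0.462), -0.26 for Irx2 (SE 0.21, adjusted p = 0.506), -0.13 for Irx5 (SE 0.29, adjusted p = 0.809) and -0.27 for Irx6 (SE 0.6, adjusted p = 0.811). Without wild type replicate 1 of E17.5 the interaction was -0.19 for Irx1, -0.12 for Irx2 and for Irx3, 0.20 for Irx5 and 0.32 for Irx6. Settings that kept every library brought the interaction to as little as -0.09 for Irx1 and -0.0 for Irx3. For Irx4 the fitted interaction was -2.48 (SE 1.44, edgeR adjusted p = 0.462). With 0 reads in humanized embryos of E17.5 it depends on the prior count added in the fit and is no bound. It was 0.29 without wild type replicate 4 of E17.5, which holds the 3 reads of that stage.

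Apart from the Irx genes, the TALE class counts 12 genes among the lists used here. Of these, 5 were called lower and 1 higher in wild type embryos at E17.5 (median log2 fold change -0.38), and 8 lower and 2 higher in humanized embryos (median -0.72). Of all genes tested, 26.7% were lower and 29.0% higher in wild type, and 39.5% and 38.2% in humanized embryos. By edgeR with Benjamini-Hochberg adjustment, Tgif1 (log2 fold change -3.24, SE 0.3 in wild type; -3.81, SE 0.19 in humanized embryos) and Tgif2 (-2.69, SE 0.23; -3.04, SE 0.15), both corepressors of TGF-beta signalling, had falls within the range of those of the Irx genes. Meis1, a cofactor of Hox proteins, fell (-1.99, SE 0.18 and -2.01, SE 0.15), whereas its relative Meis2 rose by 1.30 (SE 0.38) and 1.47 (SE 0.27). Summed over the 18 genes of the class, Irx genes included, wild type samples had 1430, 1370, 1480 and 1420 CPM at E11.5, against 1140, 981, 864 and 832 at E17.5. In the genotype comparisons and the interaction, edgeR called 0 of the 12 genes.

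Most signals and factors that set out the early diencephalon were also lower at E17.5. Of the 23 patterning genes listed, 22 were tested in the stage comparisons, all but Fgf8. In wild type embryos 16 were called lower and 2 higher (median log2 fold change -3.04), and in humanized embryos 18 lower and 3 higher (median -3.25). Of all genes tested, 26.7% were lower and 29.0% higher in wild type, and 39.5% and 38.2% in humanized embryos. Shh, the signal of the zona limitans, fell, with log2 fold changes of -3.71 (SE 0.24) in wild type and -4.04 (SE 0.18) in humanized embryos. Gli2, which carries the Shh signal to the genome, had -4.11 (SE 0.27) and -4.60 (SE 0.16). Among the transcription factors, Olig3, which marks early progenitor domains, had -6.31 (SE 0.27) in wild type embryos, and Barhl2 had -2.96 (SE 0.17). Six3, which marks territory in front of the zona limitans, rose by 1.31 (SE 0.27) in wild type and 1.03 (SE 0.13) in humanized embryos, and Fezf1, of the rostral forebrain, by 2.81 (SE 0.47) and 2.07 (SE 0.47). Tcf7l2 had values of 0.20 (SE 0.18, adjusted p = 0.385) and 0.50 (SE 0.14, adjusted p = 0.00545). The edgeR test with Benjamini-Hochberg adjustment called 0 of these genes in the genotype comparisons and the interaction.

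Markers of cell classes also differed between the stages, where 26.7% of all genes tested were lower and 29.0% higher in wild type, and 39.5% and 38.2% in humanized embryos. Of 9 markers of neural progenitors, 8 were called lower and 1 higher in both genotypes, with medians of -2.39 in wild type and -1.93 in humanized embryos. Their summed level in wild type replicates was 4530, 4490, 5040 and 4650 CPM at E11.5, led by Nes, against 962, 1040, 1240 and 1250 CPM at E17.5, led by Fabp7. In humanized replicates it was 4450, 4340, 4510 and 4560 CPM at E11.5, led by Vim, against 1000, 1120, 1210 and 1170 CPM at E17.5. Progenitor sums were thus lower at E17.5 in every sample, as were Irx1, Irx2, Irx3 and Irx5. Of 8 neuronal markers, 7 were called higher and 0 lower in both genotypes, with medians of 1.82 and 1.80. Their sum in wild type replicates was 2400, 1890, 2420 and 2010 CPM at E11.5, led by Tubb3, against 6720, 6970, 6040 and 6640 CPM at E17.5, led by Map2. In humanized replicates the neuronal sum was 1830, 2260, 1520 and 2250 CPM at E11.5 and 7140, 7630, 6010 and 6690 CPM at E17.5. None of these markers was at 0 in any group. Their part in the Irx falls was not tested.

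Regional lists differed in direction. Of all genes tested, 29.0% were called higher and 26.7% lower in wild type, and 38.2% and 39.5% in humanized embryos. The 3 pretectal markers, 0 called higher and 3 lower, had a median of -3.63 in wild type and -3.70 in humanized embryos. Their sums in wild type replicates were 94.4, 88.6, 104 and 86.5 CPM at E11.5, led by Pax3, against below 10 CPM in each E17.5 sample. The 7 thalamic markers had 4 called higher and 2 lower in wild type (median 1.02) and 5 and 2 in humanized embryos (median 1.85). Their sums in wild type replicates were 446, 280, 381 and 293 CPM at E11.5. Of 6 habenula markers tested out of 7, with Tac2 not tested, 4 were called higher and 2 lower (median 1.68) in wild type and 3 and 2 (median 1.44) in humanized embryos. Of 10 markers of rostral thalamus and prethalamus, 3 and 3 (median -0.09) were called in wild type and 3 and 4 (median -0.45) in humanized embryos. Of 8 hypothalamic markers tested out of 9, with Rax not tested, 6 were called higher and 0 lower in both genotypes (medians 1.86 and 1.95). The 8 telencephalic markers had 5 called higher and 2 lower in both genotypes (medians 5.09 and 5.11). Of 12 midbrain and hindbrain markers, 5 were tested, of which 1 was called higher and 0 lower in wild type (median 0.65) and 1 and 1 in humanized embryos (median 0.14). The part of these regional markers in the Irx falls was not tested.

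Other tissues that a dissection could include were also followed, and are set beside the 29.0% of all genes called higher and 26.7% lower in wild type, and 38.2% and 39.5% in humanized embryos. Markers of meninges and mesenchyme had 1 of 9 called higher and 7 lower in wild type (median -1.42) and 1 and 8 in humanized embryos (median -1.73), and wild type replicates summed to 1600, 1960, 1440 and 1720 CPM at E11.5. The 7 blood markers had 1 called higher and 2 lower in wild type (median -0.31) and 1 and 5 in humanized embryos (median -1.61). The 7 endothelial markers had 1 called higher and 0 lower (median -0.04) in wild type and 1 and 3 (median -0.23) in humanized embryos. The 6 choroid plexus markers had 3 called higher and 1 lower (median 1.03) in wild type and 3 and 2 (median 1.11) in humanized embryos. Of 7 surface ectoderm markers, 5 were tested, with 0 called higher and 4 lower (median -1.40) in wild type and 0 and 5 (median -1.35) in humanized embryos, and their sums did not exceed 22.0 CPM in any sample. Their part in the Irx falls was not tested. In each of these marker lists edgeR called 0 genes between genotypes at either stage or in the interaction.

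Whether Irx genes vary together from sample to sample was asked after the mean of each stage and genotype had been taken off the log2 CPM. Over the 16 samples the 10 pairs of Irx1, Irx2, Irx3, Irx5 and Irx6 had Pearson r from 0.49 to 0.85. The pair of Irx1 and Irx3, from different clusters, had r = 0.85 (permutation p = 0.0442, Benjamini-Hochberg adjusted over 10 pairs 0.147) and Spearman rho = 0.47 (permutation p = 0.134, adjusted 0.223). Without the 2 samples farthest from the median of Irx1, wild type replicates 1 and 2 of E17.5, r was 0.22, so the r of this pair depends on those samples. Irx3 and Irx6, both of chr8, had r = 0.62 (permutation p = 0.0472, adjusted 0.147) and rho = 0.66 (permutation p = 0.0126, adjusted 0.121), and r = 0.58 without the 2 samples farthest for Irx3, but 0.31 without wild type replicate 1 of E17.5 alone. Irx2 and Irx6 had r = 0.67 (permutation p = 0.0217, adjusted 0.147) and rho = 0.60 (permutation p = 0.0242, adjusted 0.121), and r = 0.46 without the 2 farthest for Irx2, wild type replicates 1 and 4 of E17.5. By either coefficient 0 of the 10 pairs had an adjusted p under 0.05. All 10 r values were lower without wild type replicate 1 of E17.5, down to 0.07 for Irx5 and Irx6.

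The genes most like each Irx gene over the 16 samples were picked for their r among 14826 protein-coding genes and are given as a description only. They were Trim41 (r = 0.97), Hvcn1 (0.96) and Mlycd (0.95) for Irx1, which kept 0.91, 0.87 and 0.94 without the 2 farthest samples. For Irx2 they were Tubg2 (0.89), Sox14 (0.89) and Drgx (0.88), with 0.80, 0.92 and 0.85 without the 2 farthest. Sox14 marks the rostral thalamus, and Drgx is a homeobox gene of sensory neurons. For Irx3 they were Ywhae (0.96), Arf4 (0.95) and Tmem158 (0.94), with 0.69, 0.61 and 0.41 without the 2 farthest. For Irx5 they were Pard3 (0.96), Slc6a6 (0.93) and Sil1 (0.92), with 0.87, 0.81 and 0.77. For Irx6 they included S1pr1 (0.89) and Panx2 (0.88), with 0.69 and 0.70. Irx4, with few reads, had its highest r with Hsd17b8 (0.81), Rab2b (0.74) and Sod2 (0.73), with 0.53, 0.67 and 0.55. None of the genes named here is another Irx gene.

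The clusters hold other transcripts beside the Irx genes. Between the outermost Irx gene ends, with 2 kb added, the chr13 cluster spans chr13:72104040-73419745 and the chr8 cluster chr8:92523153-93409584 of mm39. The annotation places 46 other genes in these spans, 25 of them in the count files and 0 of them protein-coding. Of these, 5 had enough reads to be tested between stages, and by edgeR with Benjamini-Hochberg adjustment all 5 were called lower at E17.5 in both genotypes, where 26.7% and 39.5% of all genes tested were called lower. They were Irx3os (log2 fold change -2.80, SE 0.28 in wild type; -2.83, SE 0.32 in humanized embryos), Crnde (-2.68, SE 0.19; -2.36, SE 0.18), Gm20554 (-1.88, SE 0.25; -1.32, SE 0.18), Gm21817 (-1.82, SE 0.56; -2.03, SE 0.35) and the pseudogene Rpl9-ps4 (-0.87, SE 0.32; -1.28, SE 0.39). Irx3os is antisense to Irx3, Crnde to Irx5, Gm20554 to Irx2, Gm45505, which had 0 to 3 reads per sample, to Irx6 and Gm61548, which was not counted, to Irx4. The counts used here ignore strand, so the values of both partners are uncertain in these overlaps. With the strand column, which separates the partners, the wild type log2 fold change was -3.21 for Irx3, -2.47 for Irx5, -1.85 for Irx2, -4.45 for Irx4 and 1.0 for Irx6 (edgeR adjusted p = 0.0915).

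The protein-coding genes that flank the spans went in different directions. Their starts lay 68961 bp (Ndufs6) to 1121913 bp (Adamts16) from the nearest Irx start. By edgeR with Benjamini-Hochberg adjustment, Adamts16, a metalloprotease gene beyond Irx1, rose by 3.49 (SE 0.28, adjusted p = 3.6e-06) in wild type and 3.62 (SE 0.18, adjusted p = 5.92e-09) in humanized embryos on the log2 scale. Ndufs6, a subunit of respiratory complex I beyond Irx4, had values of -0.02 (SE 0.23, adjusted p = 0.955) and -0.51 (SE 0.12, adjusted p = 0.00242). Fto, an RNA demethylase gene beyond Irx3, had values of 0.60 (SE 0.27, adjusted p = 0.0811) and 0.13 (SE 0.11, adjusted p = 0.293). Mmp2, a matrix metalloprotease gene beyond Irx6, fell (-1.30, SE 0.3, adjusted p = 0.00392, and -1.70, SE 0.14, adjusted p = 3.31e-07), so at this end of the chr8 cluster the neighbour was lower at E17.5 while Irx6 was not called lower.

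At the gene starts, promoter marks were read from wild type peak lists, counting a start as marked where every replicate had a peak with at least 1 bp within 2 kb of it. All 6 Irx starts carried H3K4me3 at both stages, against 61.7% of 21757 protein-coding starts at E11.5 and 62.0% at E17.5. All 6 also carried H3K27me3 at both stages, against 20.3% and 21.9%. The pair of H3K4me3 and H3K27me3, known as a bivalent state, was thus present at 6 of 6 Irx starts at both stages, against 18.5% and 18.6% of all starts. H3K27ac was present at Irx1, Irx2, Irx3 and Irx5 at E11.5 (4 of 6, against 46.1%), and at these and Irx6 at E17.5 (5 of 6, against 56.0%). All 3 marks together were found at 4 Irx starts at E11.5 and 5 at E17.5, against 7.4% and 12.3% of all starts. Peaks in bulk tissue do not tell whether marks of one start lie on the same chromosomes or in different cells. CTCF was present at the starts of Irx1, Irx2, Irx4 and Irx5 at E17.5 (4 of 6, against 37.9%), and at that of Irx6 in replicates 1 and 3 only, so that 5 starts counted without replicate 2.

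The enrichment of H3K4me3 was read as fold over local background in the highest peak near the start. In wild type lists it was lower in every E17.5 list than in any E11.5 list at each start but that of Irx4. Irx3 had 59.9 and 70.6 in the replicates of E11.5 and 31.9, 20.6 and 18.5 in those of E17.5. Irx1 had 61.3 and 59.5 at E11.5, against 30.1, 25.1 and 16.6 at E17.5. Neither gene had overlapping stages. Irx5 had 59.2 and 63.4 at E11.5, against 39, 43.5 and 29.1 at E17.5, and Irx2 47.1 and 52.7 at E11.5, against 27.1, 31.7 and 28.3 at E17.5, again without overlap. As log2 ratios of the stage means these were -1.46 for Irx3, -1.34 for Irx1, -0.78 for Irx2 and -0.72 for Irx5, each with a two-sided exact permutation p of 0.1, the smallest that 2 against 3 samples allow. The median over 13243 starts marked at both stages was 0.19. Of these starts, 0.249% had a lower ratio than Irx3, 0.378% than Irx1, 1.5% than Irx2 and 1.68% than Irx5. The shares for Irx6 and Irx4 were 5.44% and 59.0%. Irx4, whose RNA was near 0, had 13.4 and 14.1 at E11.5, against 18.2, 15.2 and 16.1 at E17.5 (log2 ratio 0.26, exact p = 0.2). Irx6 had 19.9 and 22.6 at E11.5, against 15, 16.3 and 18.6 at E17.5 (log2 ratio -0.35, exact p = 0.2). The H3K4me3 peak at Irx3 was 10 to 10.3 kb wide at E11.5 and 3.4 to 3.76 kb at E17.5, that at Irx5 14.9 to 15.5 kb and 8.03 to 12.1 kb, and that at Irx4 under 1.02 kb at both stages.

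H3K27ac at the same starts had fold values of 31.4 and 25.9 for Irx3 at E11.5, against 15.3, 10.9 and 13 at E17.5. The corresponding stage means were 28.8 ± 2.12 (SD, n = 2) and 17.2 ± 3.72 (n = 3) for Irx1, 28.8 ± 5.23 and 18 ± 1.76 for Irx5, and 17.4 ± 1.77 and 15.8 ± 6.73 for Irx2. Stages did not overlap for Irx1, Irx3 and Irx5 (log2 ratios -0.74, -1.13 and -0.68, two-sided exact permutation p = 0.1, the smallest possible) and overlapped for Irx2 (-0.15, exact p = 0.9). Over 9800 starts with H3K27ac at both stages the median log2 ratio was 1.03. The H3K27ac peak at Irx6 appeared only in E17.5 lists, with 5.13, 5.15 and 4.89. Irx4 had no H3K27ac peak near its start in any wild type list.

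In the wild type lists H3K27me3 went the other way at 5 of the 6 starts. Irx3 had fold values of 6.55 and 5.68 at E11.5, against 11.2 to 12.5 in the 3 lists of E17.5. Irx2 had 9.29 and 7.71 at E11.5, against 14.0, 10.8 and 11.2 at E17.5. At both starts every E17.5 list was above every E11.5 list. The log2 ratios of the stage means were 0.94 for Irx3, 0.49 for Irx2 and 0.30 for Irx1 (each with exact permutation p = 0.1, two-sided, the smallest possible), and 0.53 for Irx5 and for Irx6 (exact p = 0.2). Over 3689 starts with H3K27me3 at both stages the median was -0.22. Of these starts, 96.7% had a lower ratio than Irx3, 89.0% than Irx6, 88.9% than Irx5, 88.0% than Irx2 and 81.8% than Irx1. For Irx4 this share was 19.4%. Irx4 was the exception: it had 24.9 and 21.1 at E11.5, the strongest H3K27me3 of the family, and 15.4, 14.0 and 14.0 at E17.5 (log2 ratio -0.67, exact p = 0.1). The peak over the Irx5 start was 12.2 to 13.5 kb wide at E11.5 and 24.7 to 41.3 kb at E17.5, that over Irx1 15.3 to 16.4 kb and 29.3 to 36.7 kb, and that over Irx4 18.6 to 18.9 kb and 25.9 to 31.8 kb.

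**Figure D2:**
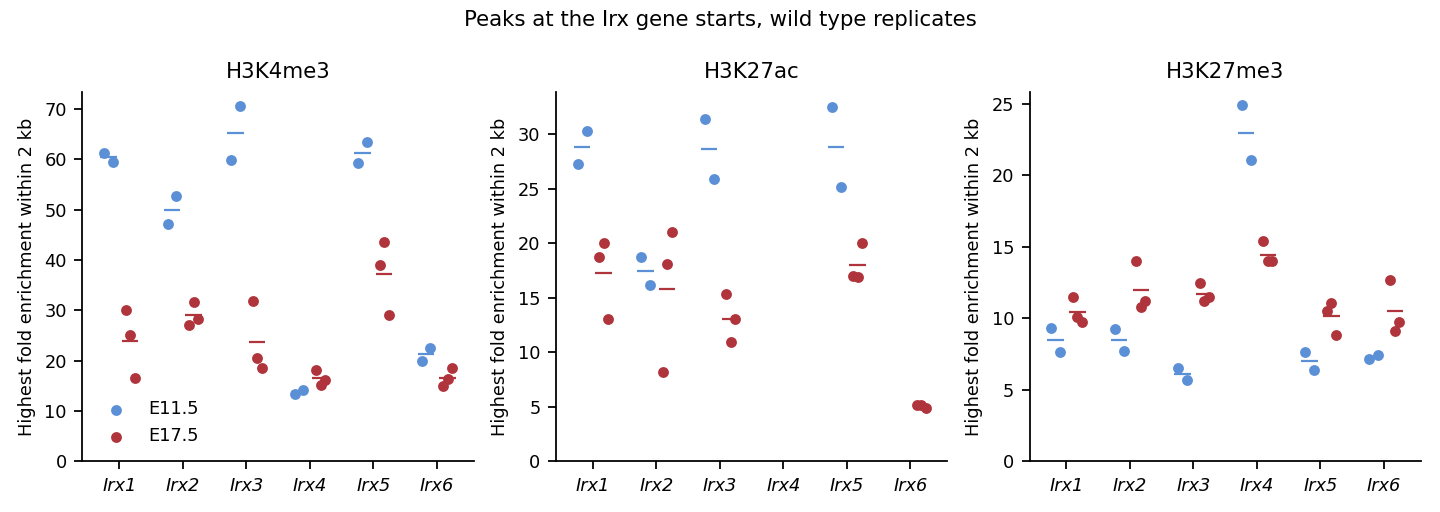
Fold enrichment over local background of the highest H3K4me3, H3K27ac and H3K27me3 peak within 2 kb of each Irx gene start in wild type embryos, with genes on the horizontal axis and fold on the vertical axis; points are replicates (2 at E11.5, 3 at E17.5) and bars are stage means. For each gene but Irx4, H3K4me3 lies lower and H3K27me3 higher at E17.5.

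Humanized lists use the coordinates of the edited genome, which are shifted downstream of hs754, and positions were not converted here, so only Irx1 and the chr8 genes are set beside the wild type. Irx1, Irx3, Irx5 and Irx6 carried H3K4me3 and H3K27me3 in every humanized list too. Between stages in humanized lists, H3K27me3 was higher at E17.5 without overlap at Irx3 and Irx5. It overlapped at Irx1 (9.8 to 10.9 at E11.5, 9.52 to 10.2 at E17.5) and at Irx6 (7.82 to 9.41, 9.01 to 10.6). H3K4me3 was lower at E17.5 without overlap at Irx1, Irx3 and Irx6, and overlapped at Irx5 (34.8 to 60.5, 37.6 to 47.0). At E17.5 the H3K27me3 fold of Irx3 was 10 to 13 in the 3 humanized and 11.2 to 12.5 in the 3 wild type lists, and the mean for Irx1 was 9.91 ± 0.349 (SD, n = 3) and 10.5 ± 0.915, with overlapping replicates. H3K4me3 at Irx3 was 28.2 ± 3.21 and 23.7 ± 7.21, and at Irx1 26.7 ± 5.6 and 23.9 ± 6.83, again overlapping. H3K27ac at Irx6 was found in 2 of 3 humanized lists of E17.5 (5.22 ± 0.141) and in 3 of 3 wild type lists (5.06 ± 0.145). At E11.5, with 2 lists per genotype, some starts did not overlap, though the H3K27me3 lists also differed over the whole genome, of which they covered 2.41% and 1.92% in humanized and 1.92% and 1.4% in wild type embryos. H3K27me3 was higher in the humanized lists at Irx1 (9.8 to 10.9, against 7.63 to 9.3), Irx5 (7.8 to 8.58, against 6.4 to 7.67) and Irx6 (7.82 to 9.41, against 7.17 to 7.45), and H3K4me3 was lower at Irx1 (43.5 to 57.7, against 59.5 to 61.3). CTCF at Irx6 was found in all 3 humanized lists (3.71 to 5.43), below the 2 wild type lists that held it (6.52 and 7.62). These genotype differences at single starts were not tested.

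Across the clusters the largest difference between stages was in H3K27me3. In the wild type lists this mark covered 7.24% and 5.64% of the chr13 span at E11.5, against 30.9%, 20.7% and 23.4% at E17.5. It covered 12.7% and 9.16% of the chr8 span at E11.5, against 47.5%, 32.3% and 33.8% at E17.5. Both clusters were covered more in every E17.5 list than in any E11.5 list. The mean share was 3.88 times as large at E17.5 for chr13 (6.44 ± 1.13% to 25.0 ± 5.3%) and 3.46 times for chr8 (10.9 ± 2.5% to 37.8 ± 8.4%), while over the whole genome the covered share was 1.82 times as large (1.66% to 3.02%). With only peaks at a -log10 q of at least 5, the share went from 4.98% to 13.1% on chr13 and from 4.63% to 21.3% on chr8, so the difference on chr13 was 8.16 points in place of 18.5 and that on chr8 16.7 in place of 26.9. The two-sided exact permutation p was 0.1 for both clusters, the smallest that 2 against 3 samples allow. In length, chr13 had 95.2 and 74.2 kb covered at E11.5 and 406, 272 and 308 kb at E17.5, and chr8 113 and 81.2 kb against 421, 286 and 299 kb. The mean fold of peaks in the chr13 span was 4.66 and 4.82 at E11.5, against 2.93, 3.17 and 3.02 at E17.5, and in the chr8 span 3.72 and 3.42 against 3.06, 3.15 and 3.05. How deeply each library was sequenced is unknown, and the number of weak broad peaks called can move with it.

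By number, most of the H3K27me3 regions lay away from the gene starts at both stages. Overlapping peaks of all replicates were merged, and a merged region was kept where every replicate had a peak in it. Lengths below are those of whole merged regions, not of bases covered in every replicate. This gave 13 regions in the chr13 cluster and 17 in the chr8 cluster at E11.5. At E17.5 the numbers were 46 and 51. All 13 and all 17 regions of E11.5 overlapped a region of E17.5. In the other direction 8 of 46 (17.4%) and 10 of 51 (19.6%) regions of E17.5 overlapped one of E11.5. These regions held most of the length, 234 of 348 kb (67.3%) on chr13 and 229 of 377 kb (60.7%) on chr8. The regions of E11.5 had 94.6 and 115 kb. More than 2 kb from an Irx start lay 10 of 13 and 14 of 17 regions of E11.5, and 43 of 46 and 48 of 51 of E17.5. By length this differed on chr13 at E11.5. There the regions at the starts of Irx1, Irx2 and Irx4 had 16.4, 22.7 and 18.9 kb of the 94.6 kb.

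The active marks of the clusters differed from the genome in how their cover changed. H3K27ac covered 2.04 ± 0.337% (SD, n = 2) of the chr13 span at E11.5 and 3.15 ± 0.456% (n = 3) at E17.5 (two-sided exact permutation p = 0.2, without overlap between replicates), and 3.65 ± 0.502% and 3.46 ± 0.297% of the chr8 span (exact p = 0.6). Over the whole genome this share was 2.6 times as large at E17.5 (1.05% to 2.73%). H3K4me3 covered 2.07 ± 0.122% and 1.74 ± 0.0527% of the chr13 span and 3.64 ± 0.106% and 2.37 ± 0.214% of the chr8 span, without overlap between stages (exact p = 0.1 for both, the smallest possible), against 1.49% and 1.56% of the genome. Merged H3K27ac regions with a peak of every replicate numbered 15 at E11.5 and 22 at E17.5 on chr13, and 13 and 15 on chr8. On chr13, 13 of the 15 regions of E11.5 (86.7%) overlapped one of E17.5, and on chr8 8 of 13 (61.5%).

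**Figure D3:**
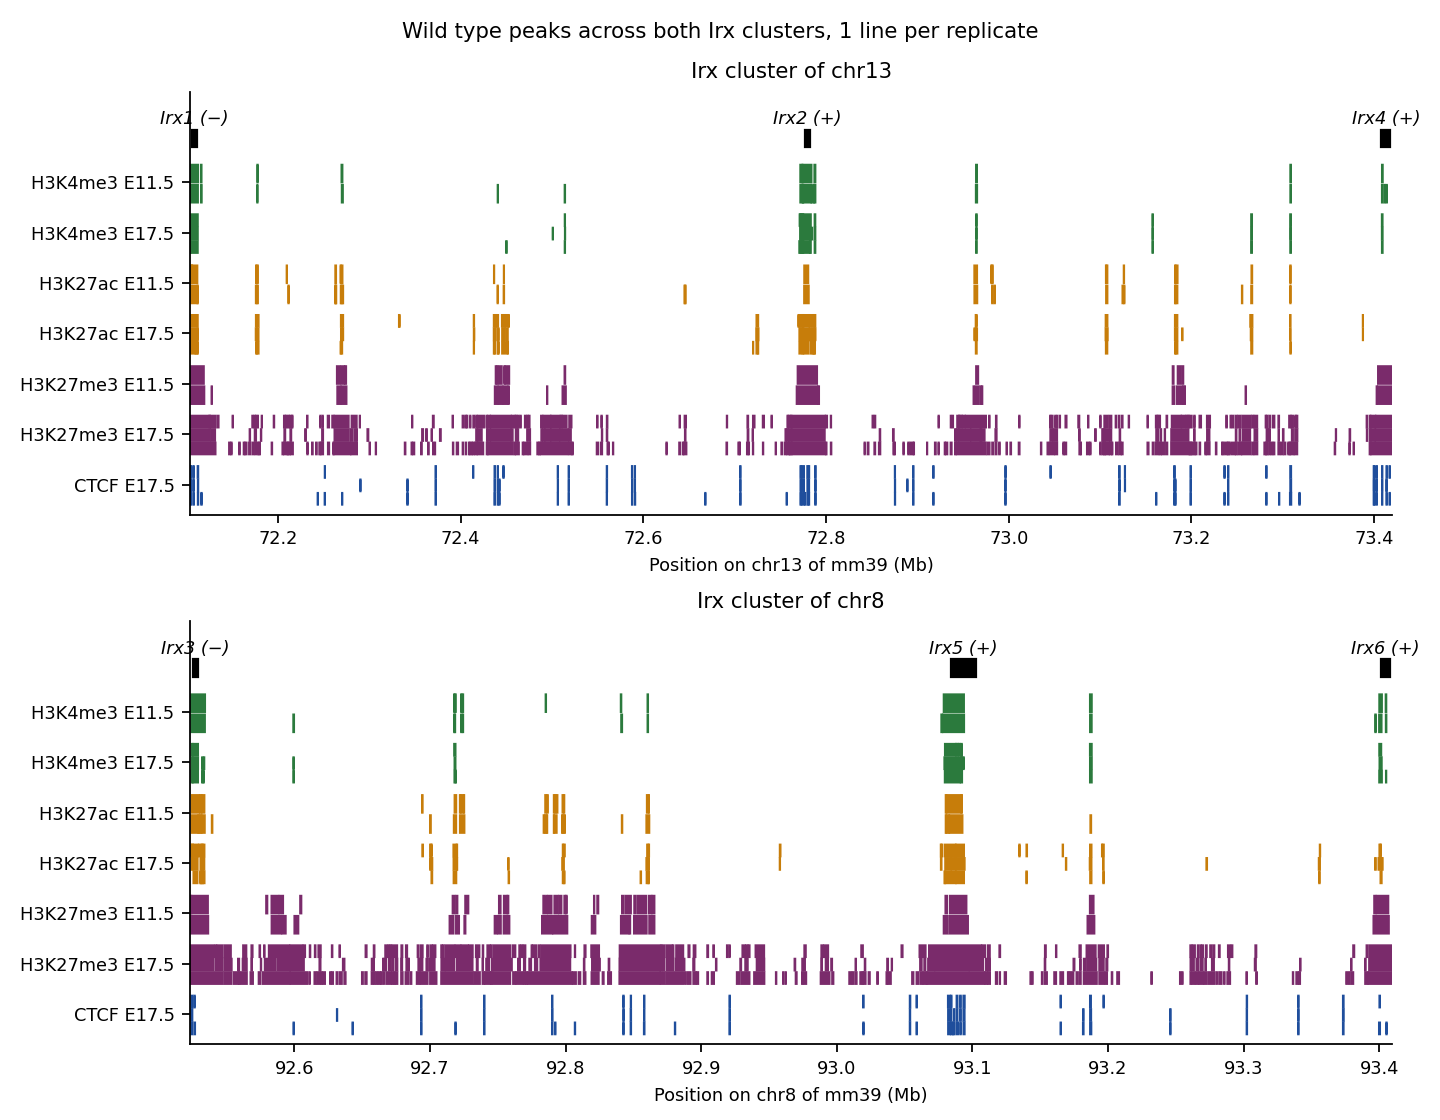
Wild type peaks of each mark and stage across the chr13 and the chr8 Irx cluster, with position in Mb of mm39 on the horizontal axis, a line per replicate, and Irx genes as black boxes with their strand; peaks are drawn to scale with an outline that widens the narrowest of them. H3K27me3 covers 25.0% of the chr13 span and 37.8% of the chr8 span at E17.5, against 6.44% and 10.9% at E11.5.

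Some regions far from the gene starts carried strong peaks too. In the chr8 cluster an H3K4me3 peak at chr8:93186646-93188016, 102 kb from the Irx5 start and outside any annotated gene, had a mean fold of 32.6 ± 7.33 (SD, n = 2) at E11.5 and 44.6 ± 3.86 (n = 3) at E17.5, above that of the Irx5 start itself at E17.5 (37.2 ± 7.37). A CTCF peak (8.05 ± 2.85, n = 3) lay in the same interval, and an H3K27ac peak (8.22 ± 0.846 at E17.5) overlapped it. H3K27me3 regions covered the interval at both stages (mean fold 4.37 at E11.5 and 4.52 at E17.5). In the chr13 cluster an H3K4me3 peak at chr13:73307997-73308854, 98.8 kb from the Irx4 start and also outside any annotated gene, had 4.66 ± 0.415 at E11.5 and 15.1 ± 0.476 at E17.5. It lay inside the strongest CTCF peak of either cluster, chr13:73307769-73309190, which had folds of 69.1, 60.7 and 63.0 in the 3 lists (mean 64.3 ± 4.32). A further H3K4me3 peak of E17.5, chr13:73265284-73266245, 141 kb from the Irx4 start, had a fold of 13.9 ± 3.54. These elements were singled out after their values had been seen.

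Merged CTCF regions with a peak in all 3 wild type lists numbered 31 in the chr13 span and 18 in the chr8 span. Windows of 101 bases around the summit of the strongest peak of each were searched on both strands for AGGNGGC, a core of the CTCF motif. It was found in 12 of 31 windows on chr13 and 5 of 18 on chr8. The 3 lists pooled had 18897 CTCF peaks on chromosomes 8 and 13. Of these, 23.8% held it, against 5.3% of windows 1 kb away from them. The pooled peaks count a site once for each list that holds it and include peaks of a single list. They are thus not matched to the windows of the clusters. After these counts had been seen, the wider form AGNNGGC, which includes AGGNGGC, was searched too, and was found in 17 of 31 and 8 of 18 windows, against 53.2% of the peaks and 18.3% of the windows 1 kb away. A match is a description of the letters and not of a bound site. The 2 windows shown are that of the strongest CTCF peak, which lies in no annotated gene and holds only the wider form, and that of the CTCF peak beside the Irx5 start (8.25 ± 0.778), which lies in an exon of the noncoding gene Gm64284 and within Crnde. Capitals mark the motif match. The chr13 window is chr13:73308489-73308589 on the plus strand and the chr8 window chr8:93082764-93082864 on the minus strand of GRCm39 (mm39).
CTCF peak 98.5 kb from the Irx4 start: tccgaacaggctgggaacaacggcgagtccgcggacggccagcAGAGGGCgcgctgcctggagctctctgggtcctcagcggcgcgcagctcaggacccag
CTCF peak beside the Irx5 start: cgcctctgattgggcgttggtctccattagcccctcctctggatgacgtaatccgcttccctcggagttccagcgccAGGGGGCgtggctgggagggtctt

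Just upstream of their annotated starts the well-expressed members were rich in CpG and Irx4 and Irx6 were not. In the 250 bases before the annotated start, Irx1 had a GC content of 73.2% with 22 CpG dinucleotides, Irx2 71.2% with 20, Irx3 68.8% with 19 and Irx5 59.6% with 23. Irx6 had 64.8% with 7 CpGs, and Irx4 53.6% with 3. The medians over 21757 protein-coding genes were 51.2% and 6 CpGs. The observed over expected CpG ratio was 0.695 for Irx1, 0.643 for Irx3, 0.303 for Irx6 and 0.171 for Irx4, against a median of 0.398. The canonical transcript of Irx4 starts 916 bp inside the gene, at 73408616, and the 250 bases before that start, which overlap an exon of Irx4, had a GC content of 68.8% with 22 CpGs. The H3K4me3 peak of Irx4 spanned this inner start in every wild type list. The palindrome ACANNTGT, a site that Irx proteins bind in vitro, was found in 0 of the 6 sequences on either strand, against 6.58% of the 21757, and TATAAA also in 0 of 6, against 12.5%. That these letters are missing from the windows says nothing of the factors.

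The upstream sequences of Irx1, Irx3, Irx4 and Irx6 are shown 5′ to 3′ on the strand of the gene, with every CpG in capitals, because they include the members with the fewest CpGs, Irx4 and Irx6, beside CpG-rich ones. They are from GRCm39 (mm39) at chr13:72111849-72112098 on the minus strand (Irx1), chr8:92528696-92528945 on the minus strand (Irx3), chr13:73407450-73407699 on the plus strand (Irx4) and chr8:93400666-93400915 on the plus strand (Irx6). The Irx3 sequence overlaps an exon of the antisense transcript Irx3os, and the other 3 overlap no annotated exon.
Irx1 upstream: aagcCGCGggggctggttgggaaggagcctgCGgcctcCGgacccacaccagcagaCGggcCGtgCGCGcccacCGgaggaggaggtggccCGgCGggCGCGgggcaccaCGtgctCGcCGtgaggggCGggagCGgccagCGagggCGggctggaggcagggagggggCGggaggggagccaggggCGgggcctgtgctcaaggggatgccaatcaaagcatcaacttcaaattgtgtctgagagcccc
Irx3 upstream: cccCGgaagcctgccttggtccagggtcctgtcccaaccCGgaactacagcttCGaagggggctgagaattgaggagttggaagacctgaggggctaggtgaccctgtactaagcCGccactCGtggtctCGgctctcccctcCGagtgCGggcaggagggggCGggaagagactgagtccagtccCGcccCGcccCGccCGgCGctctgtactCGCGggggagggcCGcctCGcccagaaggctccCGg
Irx4 upstream: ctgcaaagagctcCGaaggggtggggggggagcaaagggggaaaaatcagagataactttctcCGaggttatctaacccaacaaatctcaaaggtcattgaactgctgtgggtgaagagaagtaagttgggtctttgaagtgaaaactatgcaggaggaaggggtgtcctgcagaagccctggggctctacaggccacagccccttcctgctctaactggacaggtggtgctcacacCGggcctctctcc
Irx6 upstream: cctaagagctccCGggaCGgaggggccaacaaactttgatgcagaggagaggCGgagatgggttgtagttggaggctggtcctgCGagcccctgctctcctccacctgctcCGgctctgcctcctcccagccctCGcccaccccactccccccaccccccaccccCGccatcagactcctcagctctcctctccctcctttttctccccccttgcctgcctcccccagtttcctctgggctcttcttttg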

How the data were processed

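The authors aligned RNA reads with STAR 2.7.9a (GENCODE M31) and deposited counts per gene, of which the unstranded column was used. They aligned ChIP-seq reads with Bowtie2 2.4.2 to mm39 (humanized samples to an edited mm39 that carries the human locus) and called peaks per replicate with MACS2 2.2.7.1. The deposited peak lists hold a score that MACS2 derives from the q-value, the fold enrichment over local background, and -log10 p and q, as made by the authors. The fold was used as printed; the score was not used, and -log10 q only in a stricter alternative.

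Of 76 samples, 52 had a file that was used, and 24 inputs were not analysed here. Reads on no gene (48.1 to 58.4%) were left out of library sizes. Of 56923 gene IDs, 56236 (98.8%) matched GENCODE M39, used for positions, lengths and types. No pair of RNA libraries was identical. Genes were tested with edgeR 4.0.16 (quasi-likelihood, filterByExpr, TMM) and DESeq2 1.42.0 in R 4.3.3, with Benjamini-Hochberg adjustment at 0.05. Peaks, sequences and figures were handled with Python 3.11.15, numpy 2.4.6, pandas 2.3.3, scipy 1.17.1 and matplotlib 3.10.9. Scripts were tested on simulated data. Alternatives were DESeq2, its size factors in edgeR, no count filter, the strand column, offsets in 20 bins of GC content, a replicate block, all 16 samples in one fit, leaving out each library, and other peak windows and thresholds. GC offsets with the block at E17.5 and the motif AGNNGGC were added after the data were seen. Same-numbered humanized and wild type libraries of E17.5 had deviations with r of 0.139 to 0.731 over 4 pairs. Libraries of different numbers were not compared, so these values do not show that replicate numbers pair the samples. The labels give no pairing, and the main tests used none. The members and lists were chosen with earlier results of these data known.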

Additional observations from a re-analysis of the deposited data

Results flagged for a closer look

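With 4 samples per group, a sample was picked out where its gap to the nearest sample, as a share of the range of the group (Dixon's ratio), exceeded its tabulated critical value. Where 3 samples are equal the ratio is fixed, as in both Irx4 groups of E17.5. In the other groups this happened in 8 of 86, 4 of 22 for Irx genes and 4 of 64 for summed marker lists, where chance alone picks about 1 group in 20. Groups of the same stage and genotype share the same 4 libraries and are not independent. These shares are therefore no test against chance.

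Wild type replicate 1 of E17.5 was the sample picked out in 6 of them. It was highest for Irx5 (15.5 CPM against 7.63 to 7.83, ratio 0.975) and Irx6 (6.22 against 1.99 to 2.17, ratio 0.957). It was also highest for the summed markers of rostral thalamus and prethalamus (370 CPM against 233 to 256, ratio 0.832), telencephalon (131 against 75.2 to 83.9, ratio 0.844) and endothelium (435 against 235 to 269, ratio 0.83), and lowest for those of the habenula (135 against 181 to 189, ratio 0.852). Whether a different extent of dissection or another difference of this pool lies behind these values was not tested.

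Irx4 at E17.5 was picked out for wild type replicate 4 (0.126 CPM, from 3 reads, against 0 in the others), but with 3 samples at 0 any other value gives this ratio of 1.0. Irx5 at E11.5 was lowest in wild type replicate 2 (50.4 CPM against 54.4 to 55.2, ratio 0.833). Irx6 at E11.5 was highest in wild type replicate 1 (3.02 CPM against 1.01 to 1.18, ratio 0.915).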

How the results depend on the processing

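Of 482 alternative values of single Irx genes, 439 kept their direction and side of the threshold, 9 were weaker, 3 stronger and 31 reversed; the reversed values belong to genotype differences and interactions that were not called, and the cause was not tested. Leaving out a library gave 5 to 6 Irx genes called between stages in either genotype, among 9147 to 13994 genes in wild type and 14217 to 15103 in humanized embryos. Between genotypes, where edgeR called 0 genes, DESeq2 called 2 (E11.5) and 1 (E17.5), and the fit of all 16 samples 1 (E11.5).

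With GC offsets the genotype log2 fold change at E11.5 was -0.00012 for Irx3, -0.15 for Irx5 and -0.19 for Irx6. For Irx6 it was also -0.0043 by DESeq2, -0.0097 with DESeq2 size factors and -0.014 with the strand column. At E17.5 GC offsets gave 0.044 for Irx3, 0.28 for Irx5 and 0.16 for Irx6, and GC offsets with the replicate block 0.0051 for Irx2, 0.052 for Irx3, 0.26 for Irx5 and 0.15 for Irx6. The interaction with GC offsets was 0.20 for Irx2, 0.38 for Irx5 and 0.29 for Irx6.

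Leaving out single libraries gave ranges that cross 0 at E11.5 for Irx2 (-0.10 to 0.017) and Irx6 (-0.16 to 0.51). At E17.5 they were -0.59 to 0.016 for Irx1, -0.56 to 0.086 for Irx3, -0.16 to 0.25 for Irx5 and -0.43 to 0.34 for Irx6. For the interaction they were -2.83 to 0.29 for Irx4, -0.24 to 0.20 for Irx5 and -0.77 to 0.32 for Irx6.

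With the replicate block 6 Irx genes were called between stages in wild type (9466 genes in all; Irx6 0.93, edgeR adjusted p = 0.0283) and 5 in humanized embryos (14454 genes; Irx6 0.64, adjusted p = 0.0783). The block changed no other Irx call, and 0 genes were called between genotypes or in the interaction with it. The block rests on replicate numbers that are not known to pair samples. Same-numbered libraries of other groups had r of 0.034 to 0.236 between genotypes at E11.5. Between stages r was -0.708 to 0.564 in wild type and -0.34 to 0.533 in humanized embryos.

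Requiring at least 50% of a peak inside the window left 2 Irx starts at E11.5 and 3 at E17.5 for H3K4me3, 2 and 3 for H3K27ac, and 0 and 0 for H3K27me3, whose peaks at the Irx starts were 8.55 to 41.3 kb wide and thus wider than the window. CTCF starts ranged from 3 to 6. The stage difference in H3K27me3 cover stayed positive, from 8.16 points on chr13 and 16.7 on chr8 (both with -log10 q of at least 5) to 20.7 and 29.7 (both without replicate 2 of E17.5). Irx4 is limited by its depth of 0 to 25 reads per sample.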
